A study of Mus musculus with 68 samples.

Results

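Krt5, Krt8, Krt14, Krt15, Krt18, Krt19, Trp63, Epcam, Cdh1 and Fam83f are genes of the surface epithelium of the mouse embryo, and their RNA was followed across 68 sequencing libraries from hand-dissected pharyngeal arches. They were chosen by name, as the rows whose Ensembl identifiers carry these symbols, and all 10 were found among the 21948 genes of the deposited table. Pharyngeal arches form on both sides of the embryo's neck, and pharyngeal arch 1 (PA1) gives rise to the jaws, with pharyngeal arch 2 (PA2) next to it toward the tail. Both arches were taken from single embryos of the strain CBA/Ca/J x C57BL/10 that were labelled wildtype or Hoxa2-/-, the latter with no allele details, and 4 stages between embryonic days E9.0 and E10.5 were sampled. Hoxa2 is a homeobox gene transcribed in PA2. In order of stage (E9.0, E9.5, then E10.0 and last E10.5), wildtype PA1 was represented by 5, 5, 5 and 3 libraries and wildtype PA2 by 4, 4, 5 and 3. Libraries labelled Hoxa2-/- numbered 4, 5, 5 and 3 in either arch, so that there were 16 groups from 35 embryos, of which 33 gave both arches.

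Each arch is a core of mesenchyme, mostly from the neural crest, wrapped in surface ectoderm on the outside and lined by pharyngeal endoderm on the inside, so epithelial transcripts are a small part of the RNA of a whole arch. Keratins are the intermediate filament proteins of epithelial cells, and a filament needs a type I partner and a type II partner. Krt8 (type II) and Krt18 (type I) form the pair of simple, single-layered epithelia, and Krt19 is a further type I keratin of such epithelia. Krt5 (type II) and Krt14 (type I) form the pair of the basal layer of stratified epithelia such as epidermis, where the type I keratin Krt15 is also found. Trp63 encodes p63, the transcription factor needed for a stratified surface epithelium. Epcam and Cdh1 (E-cadherin) are adhesion proteins of most epithelia, ectodermal and endodermal alike. Fam83f belongs to the FAM83 family, whose shared domain binds casein kinase isoforms.

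The 6 keratins share a conserved stretch where the helical rod ends, which is shown here because stretches alike between keratins limit to which of them a short read can be assigned. The 27 coding bases at that place, read from GENCODE M21 transcripts (GRCm38), are given 5′ to 3′, and capitals mark bases that differ from Krt14 in the type I genes and from Krt5 in the type II gene.
Krt14: acctaccgccgtctgctggagggagag
Krt15: acTtaccgGAACctgctCgagggCCag
Krt18: acctaccgccgCTtgctggaggATgGA
Krt19: acctaccgcAgCctgctggagggCCag
Krt5: acctacaggaagctgctggagggcgag
Krt8: acctacCgCaagctgctggagggGgag
Krt19 differed from Krt14 at 4 of the 27 bases, Krt18 at 6 and Krt15 at 8, and Krt8 differed from Krt5 at 3. Over whole transcripts, 26.9% of the 50-base stretches of Krt8 also occur in another annotated gene, all of them in the pseudogene Krt8-ps. For Krt14 the share was 13.9%, with Krt16 and Krt17, and for Krt5 it was 8.52%, mostly with Krt6a. It was 0.72% for Krt18, 0.64% for Krt15 and 0 for Krt19, Trp63, Epcam, Cdh1 and Fam83f. How the authors assigned reads that fit several genes is not given in the sources used here, so Krt8, Krt14 and Krt5 values are uncertain to that extent.

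The 250 bases before the annotated start are shown for a basal keratin and for an adhesion gene, since Krt5 values were higher and Epcam values lower at E10.5 than at E9.0. Both are from RefSeq (GRCm38.p6), written 5′ to 3′ along the gene. The Krt5 stretch lies at chr15:101712906-101713155 on the minus strand, and the Epcam stretch at chr17:87635729-87635978 on the plus strand. Capitals mark CAGGTG on either strand (its reverse complement reads CACCTG), an E-box that repressors of the Snail and Zeb families bind, and in Krt5 also AGGCATGCCC, a match to 1 unit of the p53-family motif, whose full site holds a pair of such units.
Krt5: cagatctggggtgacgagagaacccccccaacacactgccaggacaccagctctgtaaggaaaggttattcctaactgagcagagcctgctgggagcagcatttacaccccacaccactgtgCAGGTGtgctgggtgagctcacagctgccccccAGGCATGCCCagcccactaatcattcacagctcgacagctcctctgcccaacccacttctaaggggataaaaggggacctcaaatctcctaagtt
Epcam: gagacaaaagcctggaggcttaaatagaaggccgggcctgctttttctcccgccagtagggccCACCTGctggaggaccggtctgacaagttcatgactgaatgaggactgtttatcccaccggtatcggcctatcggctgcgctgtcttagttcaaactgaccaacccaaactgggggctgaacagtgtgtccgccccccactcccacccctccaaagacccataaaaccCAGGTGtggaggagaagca
CAGGTG was present in both, and also in the corresponding stretches of Krt8 and Krt18, against 17.2% of 32851 RefSeq stretches of this length. A p53-family unit was found in Krt5 of these 4 genes and in 7.13% of the stretches. TATAAA was in none of the 4, against 12.4% of all, which says only that these letters are not in this window. The RefSeq entry of Krt14 begins elsewhere than the GENCODE gene and was not used, and Krt15, Krt19, Trp63, Cdh1 and Fam83f were not matched.

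In GRCm38 the type I genes Krt14 (chr11:100203162-100207548), Krt15 (chr11:100131758-100135928) and Krt19 (chr11:100140810-100148665) lie together on the minus strand. Krt5 (chr15:101707070-101712898, minus strand), Krt8 (chr15:101996698-102004482, minus strand) and Krt18 (chr15:102028180-102032027, plus strand) share another chromosome, on which Fam83f lies at a distance (chr15:80671847-80700425, plus strand). The others are on plus strands: Trp63 at chr16:25683763-25892102, Epcam at chr17:87635979-87651129 and Cdh1 at chr8:106603351-106670246. The deposited table has 1 value per gene and library, so isoforms of Trp63 cannot be told apart.

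Values are in the form of CPM, but their totals differ between libraries (926298 to 1051960), so a scaling factor beyond library size is in them, and libraries held 8912251 to 20619153 reads in the deposited genes. Replicates are different embryos. Some libraries stood apart. Wildtype PA2 E9.0 replicate 2 had 64022 CPM of 7 red cell genes, against 3347 to 4896 in its group, with 44.8 CPM of 5 trophoblast genes against 0.866 to 3.55. PA1 E9.5 replicate 3 labelled Hoxa2-/- had 3835 CPM of 9 mesothelial and fibroblast genes, against 74.5 to 167 in its group. A further 5 libraries carried over 10 times the median of 5.39 CPM of 11 yolk sac endoderm genes, the highest being PA2 E9.0 replicate 3 labelled Hoxa2-/- with 499 CPM. Hoxa2 went against the label: in PA2 at E10.5 it averaged 132 CPM in libraries labelled Hoxa2-/- and 58.3 CPM in wildtype, and what the allele removes is not given in the sources used here, so the gene's total cannot check it. The label also coincided with a division of the libraries at 3 stages. Ski stood at 26.3 to 108 CPM in the 24 wildtype libraries of any stage but E10.0, against 9.52 to 15.5 CPM in the 10 of wildtype E10.0 and 9.28 to 22.8 CPM in all 34 labelled Hoxa2-/-. Comparisons of labels are therefore read at E10.0 first, whereas both arches of a label and stage, and E9.0 and E10.5 of a label, lie on the same side of the division.

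Per kilobase of exon, Krt18 and Krt8 had the highest means over all libraries: Krt18 averaged 128 ± 60.8 CPM per kilobase (SD over 68 libraries) and Krt8 79.9 ± 39.0, and Krt18 stood above Krt8 in 68 of 68 libraries. Epcam followed with 53.1 ± 19.6 and exceeded Krt8 in 12 of 33 PA2 libraries and in none of 35 PA1 libraries, then Cdh1 with 25.8 ± 7.11, which lay below Epcam in every library. Krt19 averaged 15.8 ± 6.28 and Trp63 9.06 ± 4.07 CPM per kilobase, with their order reversed in 15 libraries. Krt14 (3.82 ± 3.55), Fam83f (3.68 ± 2.72) and Krt15 (3.04 ± 2.74) overlapped widely. Krt5 was lowest, at 0.317 ± 0.577 CPM per kilobase, with at most 3 reads in 31 libraries and none in 3 of them. Within the low group the order depended on the arch. In PA1, Krt14 exceeded Krt15 per kilobase in 35 of 35 libraries (means 6.70 and 3.32), whereas in PA2 Krt15 exceeded Krt14 in 30 of 33 (means 2.75 and 0.768). Epithelial RNA is measured here as part of the whole arch, where fewer epithelial cells and less RNA per cell cannot be told apart.

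Krt14, the type I keratin of basal cells, was higher in PA1 than in PA2 in all 8 comparisons of label and stage, by 5.54 to 13.4 times, and no PA2 library reached any PA1 library of its label and stage. In wildtype at E9.0 the 5 PA1 libraries read 5.17, 7.92, 4.92, 8.01 and 7.31 CPM and the 4 PA2 libraries 0.206, 0.855, 0.441 and 0.487 CPM. At E9.5 they read 14.6, 6.79, 9.64, 6.97 and 13.1 in PA1 and 1.961, 2.48, 1.12 and 1.81 in PA2. At these stages the lowest PA1 library was still several times the highest PA2 library. Wildtype E10.0 gave 12.4, 11.6, 18.1, 12.03 and 14.2 CPM in PA1 and 0.950, 0.762, 1.64, 1.46 and 2.27 CPM in PA2. By E10.5 the wildtype values were 17.8, 21.2 and 21.5 CPM in PA1 and 2.28, 4.004 and 2.44 CPM in PA2. Levels climbed in both arches, and the separation between them stayed. Libraries labelled Hoxa2-/- showed the same order: at E9.0 PA1 read 5.73, 8.61, 3.88 and 10.8 CPM and PA2 0.0852, 0.986, 0.379 and 1.11 CPM. At E9.5 the values were 9.57, 13.0, 9.16, 11.3 and 8.49 CPM against 0.621, 0.981, 0.653, 1.65 and 0.972 CPM. For E10.0 they were 10.4, 13.4, 12.5, 19.3 and 18.5 CPM against 1.496, 1.31, 0.378, 1.10 and 3.12 CPM. At E10.5 they came to 16.8, 15.2 and 12.2 CPM in PA1 and 1.83, 0.960 and 1.75 CPM in PA2. The single lowest value, 0.0852 CPM, was 1 read, and the PA2 libraries held between 1 and 76 reads of the gene.

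On the log2(CPM + 1) scale, which understates changes of low genes, the difference of Krt14 (PA2 minus PA1) was -2.35, -1.94, -2.62, -2.46 in wildtype from E9.0 to E10.5 and -2.31, -2.52, -2.73, -2.65 in libraries labelled Hoxa2-/-. All 8 passed an adjusted p of 0.05 in a limma fit over 18428 genes, with adjusted p from 1.8e-14 to 1e-08, and the mean over the 8 was -2.45 (SE 0.088, adjusted p = 6.1e-32). In single embryos, Krt14 was higher in PA1 in 33 of 33. PA1 lay above PA2 without overlap in all 8 comparisons for 8 genes of the 18428 tested, or 0.0434%, and Krt14 and Fam83f were among these. Others of the 8, named after their values were seen, were the homeobox gene Pitx1, the junction gene Gja1, Rab38, Fermt1 and the uncharacterised Gm47071.

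**Figure D1:**
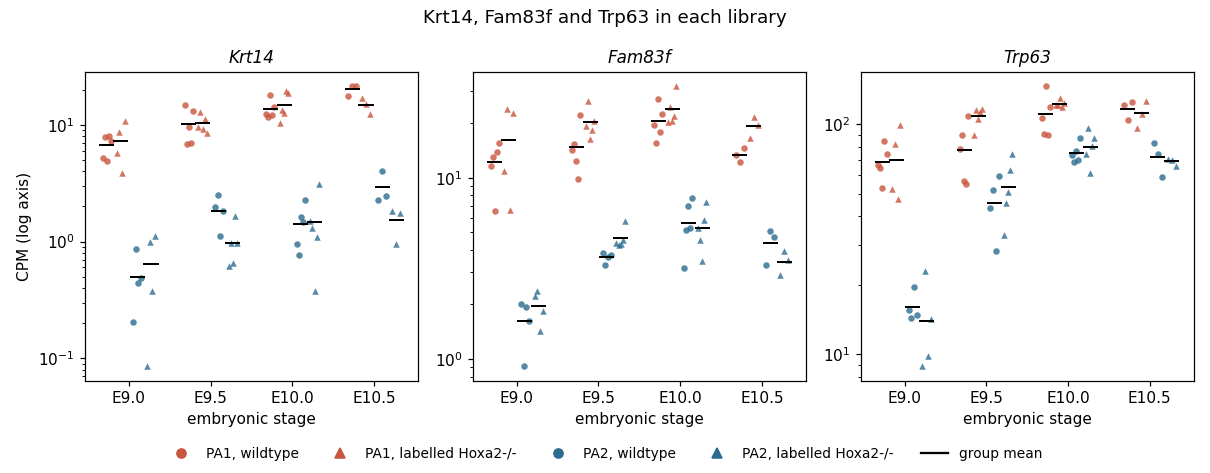
CPM of Krt14, Fam83f and Trp63 in each of 68 libraries (log axis) by embryonic stage, with PA1 in red and PA2 in blue, circles for wildtype, triangles for libraries labelled Hoxa2-/- and bars for group means. Krt14 and Fam83f separate the arches at every stage, whereas Trp63 in PA2 starts at 8.86 to 23.0 CPM and comes closer to PA1 from E9.5 on.

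Fam83f followed the same pattern, higher in PA1 by 3.07 to 8.16 times, again without overlap in any of the 8 comparisons and in 33 of 33 embryos. In wildtype at E9.0 it read 11.5, 13.0, 6.56, 13.9 and 15.6 CPM in PA1 and 2.01, 0.909, 1.93 and 1.62 CPM in PA2. At E10.0 it read 19.5, 15.6, 27.2, 17.9 and 22.6 CPM in PA1 and 3.17, 5.11, 6.99, 5.28 and 7.75 CPM in PA2. By E10.5 PA1 was at 13.3, 12.2 and 14.6 CPM and PA2 at 3.31, 5.06 and 4.71 CPM. The wildtype fold was thus smallest at E10.5, where PA1 was lower than at E10.0 on average. At E9.5 the wildtype ranges were 9.78 to 22.2 and 3.31 to 3.83 CPM. With the label Hoxa2-/-, PA1 averaged 16.05 ± 8.60 CPM (SD, n = 4) at E9.0 and 19.2 ± 2.58 CPM (SD, n = 3) at E10.5. PA2 under that label averaged 1.97 ± 0.428 CPM (SD, n = 4) and 3.44 ± 0.514 CPM (SD, n = 3). The log2 difference ran from -2.37 to -1.43 with all 8 adjusted p at or below 0.00048, and the mean was -1.95 (SE 0.084, adjusted p = 4.5e-28). Of the other FAM83 genes, 6 were tested: Fam83b (3.70 CPM in PA1 and 2.52 in PA2) differed by -0.41 and Fam83a by -0.19, both higher in PA1, Fam83d by 0.23, higher in PA2, and 3 did not pass, so that 3 of 6 were called against 44.3% of all genes in this mean comparison.

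Trp63 was also higher in PA1, but the difference was smaller after E9.0. In wildtype at E9.0 it stood at 66.2, 64.2, 53.1, 84.8 and 74.2 CPM in PA1 and 15.6, 14.4, 19.6 and 14.8 CPM in PA2, a fold of 4.25. At E9.5 the values were 77.9, 89.4, 56.7, 55.0 and 108 CPM in PA1 and 43.0, 51.6, 28.2 and 59.8 CPM in PA2, and here the ranges met. PA2 had thus moved much further between these stages than PA1. At E10.0 PA1 read 107, 90.4, 147, 89.5 and 119 CPM and PA2 73.5, 68.4, 76.7, 70.3 and 87.1 CPM, a fold of 1.47. For E10.5 the values were 121, 104 and 125 CPM and 83.2, 74.5 and 59.2 CPM. Under the label Hoxa2-/- E9.0 gave 52.4, 81.8, 47.2 and 99.3 CPM in PA1 and 8.86, 23.0, 9.84 and 14.3 CPM in PA2, again far apart. PA2 of that label averaged 14.003 ± 6.45 CPM (SD, n = 4), 53.3 ± 15.9 CPM (SD, n = 5), 79.9 ± 13.2 CPM (SD, n = 5) and 68.9 ± 2.65 CPM (SD, n = 3) from E9.0 to E10.5. PA1 under that label averaged 70.2 ± 24.7 CPM (SD, n = 4), 108 ± 11.1 CPM (SD, n = 5), 123 ± 4.20 CPM (SD, n = 5) and 111 ± 14.9 CPM (SD, n = 3). PA1 lay above PA2 without overlap in 7 of 8 comparisons, and PA1 was higher in 33 of 33 embryos.

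The arch difference of Trp63 was -2.02, -0.75, -0.53, -0.69 in wildtype and -2.27, -1.05, -0.63, -0.68 under the label Hoxa2-/- on the log2 scale. It passed at E9.0 and E9.5 in both and at E10.0 under the label Hoxa2-/- (adjusted p = 0.046), a call lost when any of 9 single libraries of the 10 was left out, and not at E10.5 (adjusted p = 0.25 and 0.24), although fits to the compared groups alone gave an adjusted p of 0.029 and 0.011 there. With the embryo as a block the wildtype difference at E10.0 also passed (adjusted p = 0.027 against 0.098 without it), and without replicate 3 of wildtype PA2 the E9.5 difference did not (-0.54, adjusted p = 0.07). The arch difference at E10.5 minus that at E9.0 was 1.33 (SE 0.32, adjusted p = 0.0087) in wildtype and 1.59 (SE 0.33, adjusted p = 0.0014) with the label Hoxa2-/-, where a fit to the 4 compared groups alone gave an adjusted p of 0.056. Among all genes, 3.35% and 7.33% passed this test, and Trp63 was the single member that did in either label. With the embryo as a block, Epcam passed as well in wildtype (-0.57, adjusted p = 0.031) and Krt18 under the label Hoxa2-/- (-0.85, adjusted p = 0.038). The change of Krt14 over the same span was -0.11 (SE 0.37) and -0.35 (SE 0.38), and that of Fam83f 0.87 (SE 0.36, adjusted p = 0.2) and 0.19 (SE 0.37). This scale understates changes of Krt14 and Fam83f, which were low in PA2. As ratios of mean CPM, PA1 over PA2 went from 13.4 at E9.0 to 6.94 at E10.5 for wildtype Krt14. For Fam83f it went from 7.50 to 3.07, and for Trp63 from 4.25 to 1.61. Under the label Hoxa2-/- the ratios went from 11.4 to 9.73, 8.16 to 5.58 and 5.01 to 1.62 in the same order. These ratios were not tested.

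Krt14 and Fam83f were also set against Epcam of the same library. As Epcam was on average higher in PA2 in all 8 comparisons, this widens the difference of their means by construction, and it says nothing of the amount of epithelium. Relative to Epcam, the log2 level of Krt14 was lower in PA2, with differences (PA2 minus PA1) of -2.45 to -3.24, and that of Fam83f likewise, with -1.49 to -2.94, with no overlap of arches in any of the 16 comparisons. In wildtype at E9.0, log2 Krt14 minus log2 Epcam was -3.97 ± 0.307 in PA1 and -6.96 ± 0.389 in PA2 (SD, n = 5 and 4). At wildtype E10.5 it was -1.67 ± 0.166 and -4.19 ± 0.451 (SD, n = 3 each). Against Trp63, a choice made after these values were seen and given without a test, the arches were close at E9.0 on the log2(CPM + 1) scale. The difference between arches (PA2 minus PA1) was -0.33 in wildtype and -0.03 with the label Hoxa2-/- for Krt14. For Fam83f it was -0.28 and -0.10, and libraries overlapped for both genes. That closeness depends in part on the added 1 CPM, since Krt14 in PA2 averaged 0.497 and 0.639 CPM at E9.0. In plain mean CPM at E9.0, PA1 exceeded PA2 by 13.4 and 11.4 times for Krt14. For Fam83f it did so by 7.50 and 8.16 times, but for Trp63 by 4.25 and 5.01 times. From E9.5 on, both genes were lower in PA2 relative to Trp63 on the log2 scale, without overlap. The differences lay between -2.0985 and -1.19 for Krt14 and -0.74 to -1.51 for Fam83f.

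**Figure D2:**
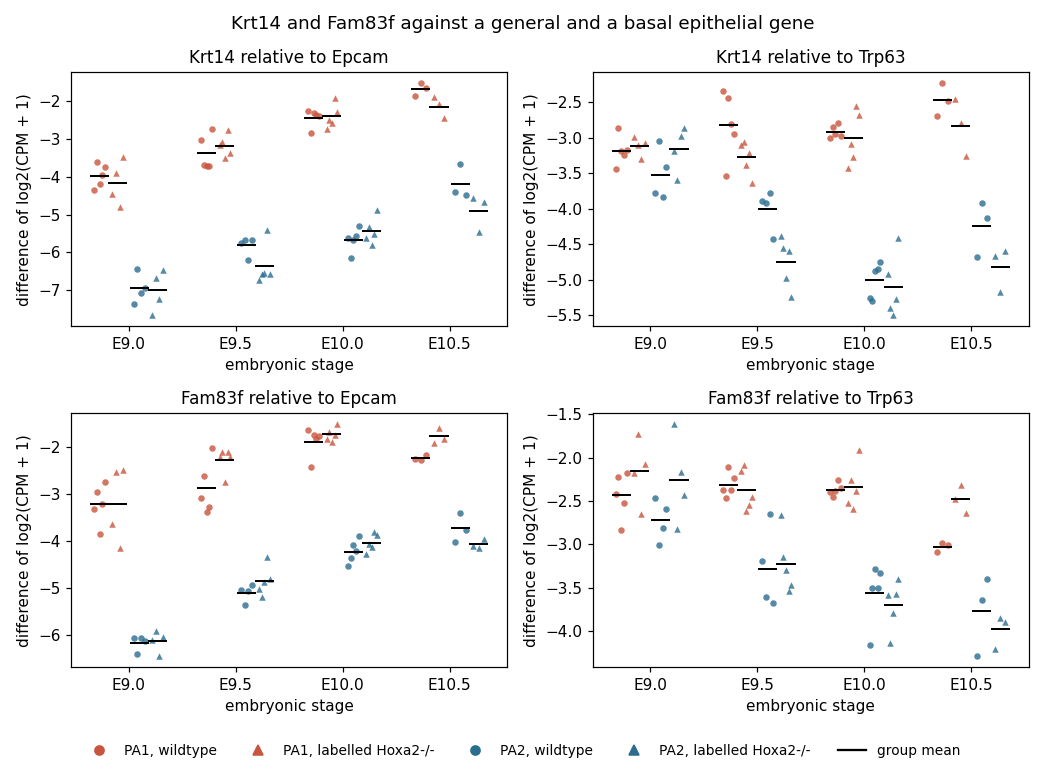
Difference of log2(CPM + 1) between Krt14 (top) or Fam83f (bottom) and Epcam (left) or Trp63 (right) in each library by stage, coloured by arch, with circles for wildtype, triangles for libraries labelled Hoxa2-/- and bars for group means. Against Epcam the arches are apart at every stage, and against Trp63 they overlap at E9.0 and part from E9.5 on. The added 1 CPM compresses the low PA2 values of E9.0, so the overlap there holds for this scale.

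Krt15, the other basal type I keratin, showed a smaller arch difference, -0.49 (SE 0.14, adjusted p = 0.0026) on average, and 31 of 33 embryos had more in PA1. Wildtype PA2 at E9.0 read 1.13, 29.8, 2.70 and 2.00 CPM, and the value of 29.8 CPM belonged to replicate 2, the library rich in red cell and trophoblast transcripts. PA1 of that stage read 2.25, 5.80, 2.77, 3.80 and 3.88 CPM, above the other 3 PA2 libraries except for overlap at the low end. Without the 2 libraries set apart for red cell or mesothelial genes, the mean difference was -0.61 (adjusted p = 4.8e-07). In single comparisons it passed under the label Hoxa2-/- at E9.5 alone (-1.303, SE 0.35, adjusted p = 0.009), where PA1 read 5.02, 7.75, 3.17, 5.22 and 4.82 CPM and PA2 0.689, 2.29, 0.580, 1.72 and 2.64 CPM, and at E9.0 also with the embryo as a block (adjusted p = 0.042) or without the 2 libraries set apart (adjusted p = 0.014). In wildtype at E9.0 the PA2 mean was the higher one, 8.92 against 3.70 CPM, and edgeR called Krt15 higher in PA2 there (1.304, adjusted p = 0.035, against 0.77 in limma). Krt5, the type II keratin that pairs with Krt14, did not differ detectably: the mean was 0.02 (SE 0.076, adjusted p = 0.82), and 16 of 33 embryos had more in PA1 and 17 more in PA2. Before E10.5 it stayed at 0 to 1.20 CPM, too few reads to resolve an arch difference of its own.

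Epcam, in contrast, was higher in PA2 at the earlier stages. In wildtype at E9.0 PA1 read 124, 108, 108, 137 and 109 CPM and PA2 198, 159, 194 and 182 CPM, and at E9.5 PA1 read 127, 99.1, 138, 103 and 92.7 CPM and PA2 158, 175, 154 and 143 CPM. At both stages every PA2 library lay above every PA1 library. Wildtype E10.0 gave 62.9, 88.3, 93.3, 66.2 and 78.6 CPM in PA1 and 95.2, 125, 134, 116 and 129 CPM in PA2. At E10.5 the values were 66.6, 62.8 and 69.2 CPM and 68.4, 62.7 and 76.4 CPM and overlapped. The log2 difference was 0.64, 0.50, 0.62, 0.06 in wildtype and 0.55, 0.67, 0.31, 0.11 with the label Hoxa2-/- in order of stage. It passed at E9.0 and E9.5 in both and at E10.0 in wildtype, the mean was 0.43 (SE 0.047, adjusted p = 3.5e-11), and 30 of 33 embryos had more in PA2. Cdh1 leaned the same way, with a mean of 0.22 (SE 0.075, adjusted p = 0.013) and 25 of 33 embryos. Its ranges over all stages were 73.6 to 158 CPM in PA1 and 43.1 to 222 CPM in PA2. It passed in wildtype at E9.5 (0.64, SE 0.20, adjusted p = 0.014), a call lost without wildtype PA2 replicate 3 (0.60, adjusted p = 0.053) or replicate 5 (0.55, adjusted p = 0.074). Under the label Hoxa2-/- the E9.5 difference of 0.49 passed with the embryo as a block (adjusted p = 0.044 against 0.097). Without the 5 yolk sac libraries Cdh1 passed at that stage and label too (0.49, adjusted p = 0.02) and at E10.0 in wildtype (0.53, adjusted p = 0.022) and under the label Hoxa2-/- (0.50, adjusted p = 0.046). The lowest Cdh1 value, 43.1 CPM, was PA2 E9.0 replicate 3 labelled Hoxa2-/-, the library richest in yolk sac transcripts, and its group otherwise ran from 124 to 191 CPM.

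Krt8 and Krt18 differed little between arches. Krt8 covered 71.7 to 501 CPM in PA1 and 55.7 to 381 CPM in PA2, and its mean difference was -0.25 (SE 0.088, adjusted p = 0.017). Krt18 covered 63.8 to 384 and 48.4 to 480.2 CPM, with -0.20 (SE 0.077, adjusted p = 0.029), a call that was lost without the 2 libraries set apart (-0.16, adjusted p = 0.065) and with edgeR (-0.18, adjusted p = 0.056). Neither passed in any single comparison of the fit to all libraries. At E10.5, with 3 libraries per group, PA1 lay above PA2 without overlap for both genes in both labels. The folds were 1.34 in wildtype and 1.55 under the label Hoxa2-/- for Krt8, and 1.36 and 1.45 for Krt18. How many of all genes separated so at that stage was not counted, so the separation is given as values and shows nothing particular to these genes. A limma fit to the compared groups alone called Krt8 there under the label Hoxa2-/- (-0.63, adjusted p = 0.014). The highest Krt8 value, 501 CPM, and a Krt18 value of 384 CPM were in PA1 E9.5 replicate 3 labelled Hoxa2-/-, where mesothelial and fibroblast genes were also highest, and the rest of that group had 141 to 223 CPM of Krt8. Wildtype PA1 E9.0 replicate 4, next highest in that list with 838 CPM, had 325 CPM of Krt8 against 164 to 216 in its group. Over 68 libraries, deviations of Krt8 from the group means had r = 0.73 with those of the mesothelial and fibroblast list (0.60 without the 2 farthest libraries). They had r = 0.80 with the desmosome list and 0.77 with the general epithelial list (0.76 and 0.73 without the 2 farthest), and the part of such cells in the Krt8 values was not tested. Krt8-ps, which shares reads with Krt8, stood at 4.50 to 73.1 CPM. Krt19, a type I keratin of simple epithelia, was higher in PA1, -0.39 (SE 0.076, adjusted p = 2.8e-05), in 28 of 33 embryos, and covered 14.3 to 69.5 CPM in PA1 and 9.76 to 43.6 CPM in PA2. It passed in wildtype at E9.0 (-0.62, adjusted p = 0.024) and under the label Hoxa2-/- at E9.5 (-0.64, adjusted p = 0.023). The E9.0 call was lost without wildtype PA1 replicate 4 (-0.44, adjusted p = 0.12) or wildtype PA2 replicate 2 (-0.52, adjusted p = 0.1), and the E9.5 call without any of 5 single libraries, among them PA1 replicate 3 (-0.52, adjusted p = 0.089).

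**Figure D3:**
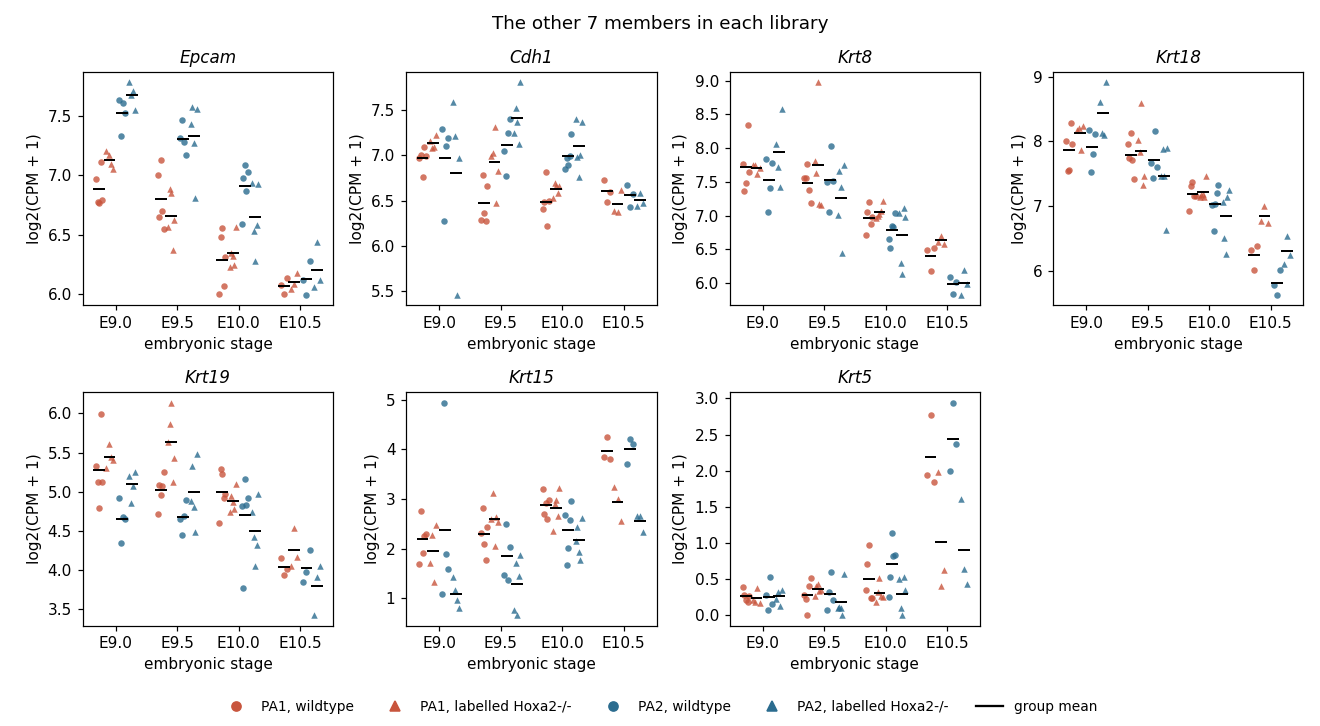
Log2(CPM + 1) of Epcam, Cdh1, Krt8, Krt18, Krt19, Krt15 and Krt5 in each library by stage, with PA1 in red, PA2 in blue, circles for wildtype, triangles for libraries labelled Hoxa2-/- and bars for group means (each panel has its own scale). Epcam, Krt8, Krt18 and Krt19 are lower at E10.5 than at E9.0, Krt15 is higher, and Krt5 leaves the floor at E10.5.

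Counted over the 10 members, limma called 5, 5, 3 and 2 between the arches in wildtype from E9.0 to E10.5, against 18.7%, 26.3%, 5.94% and 1.52% of all 18428 genes. With the label Hoxa2-/- it called 4, 6, 3 and 2, against 24.6%, 9.58%, 4.23% and 1.37%. The 2 called at E10.5 were Krt14 and Fam83f in both labels. In the mean over the 8 comparisons 9 of 10 members passed, 7 higher in PA1 and 2 in PA2, against 44.3% of all genes, of which 23.4% were higher in PA1 and 20.9% in PA2. Median log2 differences were -0.32 over the 10 members and -0.02 over all genes. Those higher in PA1 were Krt14, Fam83f, Trp63, Krt15, Krt19, Krt8 and Krt18, and those higher in PA2 were the adhesion genes Epcam and Cdh1.

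**Figure D4:**
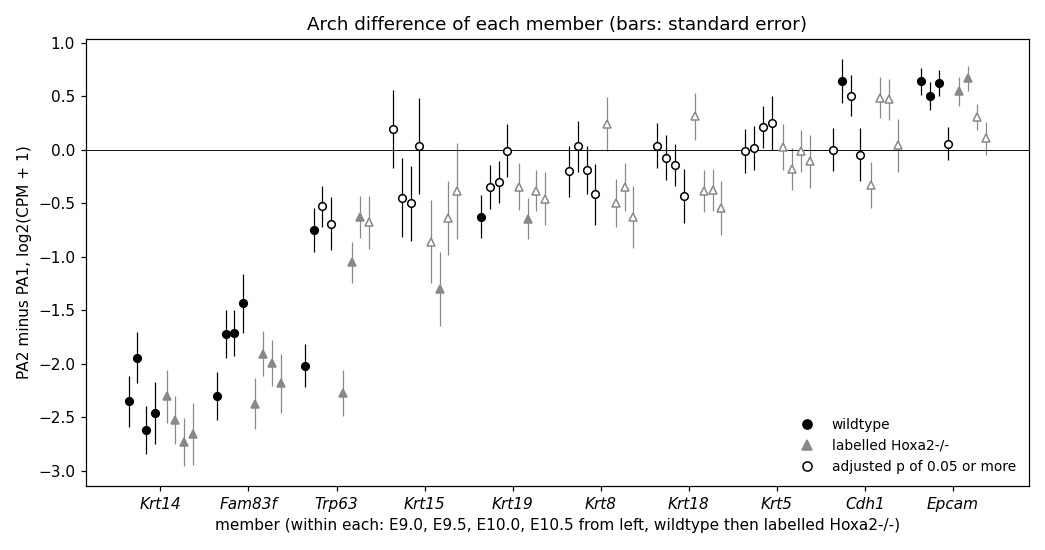
PA2 minus PA1 difference in log2(CPM + 1) for each member, label and stage (bars are standard errors of the limma fit; circles wildtype, triangles labelled Hoxa2-/-, open symbols did not pass). Krt14 and Fam83f lie between -1.43 and -2.73 at all stages, Trp63 moves from -2.02 and -2.27 at E9.0 to -0.69 and -0.68 at E10.5, and Epcam lies above 0. The added 1 CPM compresses the low PA2 values of Krt14 and Fam83f, most at E9.0. In plain mean CPM the wildtype ratio of PA1 to PA2 also narrowed from E9.0 to E10.5. It went from 13.4 to 6.94 for Krt14, from 7.50 to 3.07 for Fam83f and from 4.25 to 1.61 for Trp63.

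From E9.0 to E10.5 the members split in opposite directions within each arch. Krt5 is left out of these counts, since it entered the tests through its E10.5 libraries. In wildtype PA1, 7 of the other 9 passed (42.5% of all genes), with Krt14, Krt15 and Trp63 higher at E10.5 and Epcam, Krt8, Krt18 and Krt19 lower. In wildtype PA2, 8 passed (36.9% of all genes), these 7 in the same directions and Fam83f, which rose by 1.04. With the label Hoxa2-/-, 7 passed in PA1 (31.2%) and 6 in PA2 (30.9%). Trp63 rose by 0.77 in wildtype PA1 and 2.096 in PA2, and by 0.72 and 2.31 under the label Hoxa2-/-, where the PA1 call was lost without any of 3 single libraries (adjusted p of 0.064, 0.076 and 0.087). Krt14 rose by 1.48 and 1.37 in wildtype PA1 and PA2 and by 1.00 in PA1 labelled Hoxa2-/-, while in PA2 of that label the difference was 0.65 (adjusted p = 0.059, and 1.15 with adjusted p = 0.015 at a pseudocount of 0.25). Krt15 rose by 1.79 in wildtype PA1 and 1.63 in wildtype PA2, the latter with 0.74 and an adjusted p of 0.24 in edgeR, and replicate 2 at E9.0 was the library with 29.8 CPM. Under the label Hoxa2-/- it rose by 1.46 in PA2, and in PA1 the difference was 0.99 (adjusted p = 0.064, and 0.0065 without the 2 libraries set apart). Epcam fell, with log2 differences of -0.81 and -1.39 in wildtype PA1 and PA2 and of -1.03 and -1.47 under the label Hoxa2-/-. Krt18 also fell, with -1.62, -2.099, -1.28 and -2.14 in the same order, and Krt8 with -1.32, -1.54, -1.07 and -1.94. Krt19 fell as well, with -1.24, -0.62, -1.19 and -1.303, and the wildtype PA2 call was lost without any of 4 single libraries. Cdh1 fell in PA1 labelled Hoxa2-/- (-0.68, SE 0.23, adjusted p = 0.02), a call lost without E10.5 replicate 1 or 2 (adjusted p = 0.072 and 0.066). In PA2 of that label its difference was -0.31 (adjusted p = 0.33), and -0.75 (adjusted p = 0.0015) without the yolk sac libraries. In wildtype it was -0.36 in PA1, with an adjusted p of 0.19 (0.0031 with only the compared groups). In wildtype PA2 it was -0.41, with an adjusted p of 0.16, and -0.64 (adjusted p = 0.026) without the 2 libraries set apart.

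Krt5 passed the filter on low values through its E10.5 groups, so it is given as values, with no test of its rise or of the labels at that stage. At E10.5 wildtype PA1 read 2.83, 5.80 and 2.60 CPM and wildtype PA2 3.00, 6.69 and 4.16 CPM, against 0.138 to 0.313 and 0.0534 to 0.441 CPM at E9.0. With the label Hoxa2-/-, E10.5 gave 2.95, 0.327 and 0.544 CPM in PA1 and 2.06, 0.560 and 0.351 CPM in PA2, in both arches with replicate 1, one embryo, highest. The wildtype libraries all lay above those labelled Hoxa2-/- in PA2, whereas in PA1 replicate 1 of that label lay within the wildtype range. The gene reached 1 CPM in 9 of 68 libraries. Krt15 at E10.5 read 13.5, 18.1 and 13.1 CPM in wildtype PA1 and 12.1, 17.6 and 16.2 CPM in wildtype PA2. Under the label Hoxa2-/- it read 8.48, 6.99 and 4.90 CPM in PA1 and 5.34, 5.28 and 4.07 CPM in PA2, below every wildtype library of its arch.

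The study's question was how loss of Hoxa2 alters the arches. At E10.0, where the libraries of both labels lay on the same side of the division, limma called 0 of 10 members in PA1 and 0 in PA2, against 0% and 0.0814% of all genes. With an unadjusted p below the same threshold there were 0 members in PA1 and 2 in PA2, and edgeR called 0 in both. Those 2 were Krt5 (-0.42) and Epcam (-0.26), each with a limma adjusted p of 0.62. For Krt14 the difference at E10.0 (Hoxa2-/- label minus wildtype) was 0.09 (SE 0.22) in PA1 and -0.02 (SE 0.22) in PA2, for Trp63 0.18 and 0.08 (SE 0.19 each), and for Fam83f 0.21 and -0.07 (SE 0.21 each). Whether the label difference itself differed between arches was tested at each stage and on average, and limma called 0 members in each of these 5 tests, against 0%, 0.0109%, 0.0163% and 0.038% of all genes from E9.0 to E10.5 and 0.0651% for the mean. With an unadjusted p below the threshold there were 0 members at each stage and 1 in the mean, Krt15 (-0.62), and edgeR called 0 in all 5. The arch differences of Krt14, Fam83f and Trp63 were thus present in both labels, and no difference between labels was detected in them.

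At the other stages the label and the division of the libraries cannot be told apart. In PA1, 0 members passed at E9.0, 2 at the next stage and, leaving out Krt5, 0 at E10.5 (2.08%, 23.6% and 3.05% of all genes). In PA2, 1, 0 and, leaving out Krt5, 1 passed (14%, 4.48% and 10.3%). For the counts of 0, PA1 at E9.0 and E10.5 and PA2 at E9.5, edgeR also called 0, and 0, 2 and 1 members had an unadjusted p below the threshold. In PA1 at E10.5, limma on the compared groups alone called Krt18 (0.60, adjusted p = 0.026) and Krt15 (-1.04, adjusted p = 0.028). Krt15 also passed there without the 2 libraries set apart (limma adjusted p = 0.046). In PA2 at E10.5 the compared groups alone gave Krt18 (0.49, limma adjusted p = 0.041). Without the yolk sac libraries Cdh1 passed in PA1 at E9.5 (0.45, limma adjusted p = 0.015). Trp63 and Krt19 were higher in PA1 at E9.5 under the label Hoxa2-/-, by 0.52 and 0.62. Both calls were lost without PA1 replicate 3 of that label (0.52, adjusted p = 0.067, and 0.49, adjusted p = 0.076), and that of Trp63 without any of 7 single libraries. Krt15 was lower in PA2 at E9.0 (-1.29, SE 0.39, adjusted p = 0.018), which rested on the 29.8 CPM of wildtype replicate 2, and without it the difference was -0.43 (adjusted p = 0.38). Without replicate 4 labelled Hoxa2-/- the difference of -1.19 also missed the threshold (adjusted p = 0.055). At E10.5 Krt15 was lower under the label Hoxa2-/- in PA2 (-1.46, SE 0.45, adjusted p = 0.025). With edgeR its adjusted p was 0.051, and the call was lost without any of 5 of the 6 libraries (-1.35 to -1.51).

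The members were set beside other genes of the same roles. Of 10 surface and basal layer genes, 4 of them members, 6 were higher in PA1 and 0 in PA2 in the mean over the 8 comparisons, with a median of -0.64 against -0.02 over all genes, of which 44.3% were called. At E10.5 alone 2 of these 10 passed in either label (medians -0.17 and -0.60), Krt14 and Tfap2c in both. Of all genes, 1.52% were called between arches at E10.5 in wildtype and 1.37% under the label Hoxa2-/-. Tfap2c, a transcription factor of surface ectoderm, differed by -0.85 (12.6 CPM in PA1 and 6.70 CPM in PA2) and the desmosome-associated Perp by -0.81 (50.2 and 30.4 CPM). Of 23 general epithelial genes tested, 2 of them members, 15 were higher in PA2 and 2 in PA1, with a median of 0.20. At E10.5 limma called none of the 23 in either label, where so few of all genes were called that this count says little. The medians at E10.5 were -0.08 in wildtype and 0.04 under the label Hoxa2-/-. The largest were the tight junction genes Cldn3 (0.98, 4.35 and 9.86 CPM in PA1 and PA2) and Cldn4 (0.59), the protease Prss8 (0.55) and the protease inhibitor Spint1 (0.52). Among 9 genes reported as targets of p63, 3 were higher in PA2 and 3 in PA1, with a median of -0.06: Perp, the integrin-binding Fermt1 (-0.64) and the Notch ligand Jag2 (-0.32) were higher in PA1, and Fras1 (0.24) in PA2. Of 13 hemidesmosome and basement membrane genes 6 were higher in PA2, among them the laminin chain Lama3 (0.37), and 3 in PA1, among them the laminin chain Lamb3 (-0.37). Both were low: Lama3 averaged 0.349 CPM in PA1 and 0.759 CPM in PA2, and Lamb3 2.38 and 1.23 CPM. The highest Lamb3 group mean, 6.65 CPM, was in PA1 E9.5 labelled Hoxa2-/-, the group with the library rich in mesothelial transcripts. The 9 desmosome and cornified layer genes divided into 3 higher in PA2 (Pkp2 and Jup led, 0.46 and 0.45) and 2 in PA1 (Pkp3 and Dsp, -0.31 and -0.25). Among 5 other keratins that passed the filter, Krt20 and Krt7 were higher in PA2 (0.70 and 0.18). Krt17 averaged 0.898 CPM in PA1 and 0.221 CPM in PA2, with every group mean below 1.3 CPM. Its group means reached 1 CPM, the level of the filter, in PA1 alone, so it is given as values only.

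**Figure D5:**
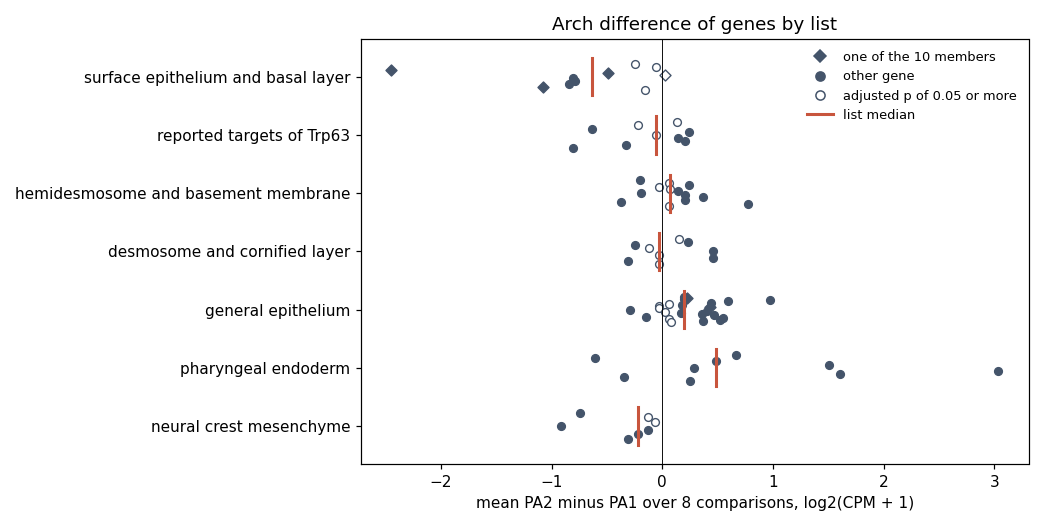
Mean PA2 minus PA1 difference in log2(CPM + 1) over the 8 comparisons for the tested genes of 7 lists (diamonds are members, open symbols did not pass, red bars are list medians). The surface and basal layer list lies mostly below 0 (median -0.64), the general epithelial and pharyngeal endoderm lists mostly above 0 (medians 0.20 and 0.48).

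By stage the same lists moved apart. From E9.0 to E10.5 the 9 surface and basal layer genes other than Krt5 all rose in wildtype PA1 and in wildtype PA2 (medians 1.79 and 2.0956, against 0.0024 and -0.01 over all genes). With the label Hoxa2-/-, 7 of the 9 rose in PA1 and 8 in PA2 (medians 1.36 and 1.55). Of all genes, limma called 42.5% in wildtype PA1 and 36.9% in wildtype PA2 in either direction. Under the label Hoxa2-/- it called 31.2% and 30.9%. Of the 23 general epithelial genes, 15 fell and 2 rose in wildtype PA1, and 18 fell and 1 rose in wildtype PA2 (medians -0.59 and -0.93). The summed level of the surface list went from 151 CPM on average at E9.0 to 393 CPM at E10.5 in wildtype PA1, and from 67.5 to 296 CPM in wildtype PA2. The summed general list went from 919 to 633 CPM and from 1244 to 607 CPM. Of the 9 reported targets of p63, 5 rose and 1 fell in wildtype PA1, and 7 rose and 1 fell in wildtype PA2 (medians 0.53 and 1.38). These counts stand against the 42.5% and 36.9% of all genes called there.

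Markers of other cell types were compared in the same mean over the 8 comparisons, in which 20.9% of all genes were higher in PA2 and 23.4% in PA1. Of 9 pharyngeal endoderm genes, 7 were higher in PA2 and 2 in PA1, led by Pax1 (3.03, 8.06 CPM in PA1 and 57.3 CPM in PA2), Pax9 (1.61), Nkx2-1 (1.504) and Foxa1 (0.67), and their sum ran from 45.7 to 93.4 CPM in PA1 and 62.1 to 264 CPM in PA2. In wildtype it averaged 75.8 CPM in PA1 and 192 CPM in PA2 at E9.0, and 52.0 and 65.6 CPM at E10.5. All 5 heart muscle genes tested were higher in PA2, and their sum was 0.907 to 115 CPM in PA1 and 1.39 to 735 CPM in PA2. In the otic epithelium list Pax8 was higher in PA2 (2.78), Oc90 and Pax2 were not among the genes tested, and in the neuron list 4 of 5 genes were higher in PA2. Of 7 neural crest mesenchyme genes, 5 were higher in PA1, led by Prrx1 (-0.92) and Alx1 (-0.75), and 0 in PA2. Of 5 endothelial genes 2 were higher in PA2, of 8 mesothelial and fibroblast genes 2 were higher in PA2 and 2 in PA1, and of 4 trophoblast genes 1 was higher in PA1. In this mean limma called none of 7 red cell and none of 11 yolk sac endoderm genes, but in wildtype at E9.0, where replicate 2 of PA2 stood apart, 6 of the 7 red cell genes were higher in PA2. The part of these cells in the arch differences of Epcam, Cdh1 and Krt14 was not tested.

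Across the 68 libraries, Krt14 was most like Pitx1 (Pearson r = 0.90 of log2 values), Rab38 (0.90) and Gja1 (0.85) among 10504 genes with a mean of at least 5 CPM. Fam83f was most like Gja1 (0.88), Adamts18 (0.88) and Fermt1 (0.86), and Trp63 most like Adamts18 (0.92), Stk26 (0.91) and Camk4 (0.90). Epcam was most like the tight junction gene Cldn6 (0.97), Spint2 (0.96) and Prss8 (0.96). Krt8 led with Krt8-ps (0.96), with which it shares reads, then Tmem88 (0.93) and Slc2a3 (0.92), and Krt18 with Stx3 (0.93), Grb7 (0.92) and Car4 (0.92). Krt19 was most like Krt8-ps (0.80), Rab15 (0.80) and Slc2a3 (0.80), Cdh1 most like Igfbp5 (0.86), Lamb1 (0.85) and Kank1 (0.84), Krt5 most like AW551984 (0.83), Tgfbi (0.80) and Ptgr1 (0.79), and Krt15 most like Tmem256 (0.78), mt-Co3 (0.76) and Ndufb1-ps (0.75). These values share arch, stage and label across libraries, and no test was made.

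Among the members themselves, Krt8 and Krt18, partners in one filament, had r = 0.96 over the libraries and 0.94 in deviations from the group means. Krt14 and Fam83f had r = 0.92 over the libraries and 0.58 in deviations, and Trp63 had 0.56 with Krt14 and 0.59 with Fam83f in deviations. Krt14 and Krt5, the pair of the basal layer, had 0.20 and 0.21, but Krt5 held at most 3 reads in 31 of the 68 libraries. With so few reads a low r says little about the pair, and the r of Krt5 between arches carries the same limit. Epcam ran against Krt14 over the libraries (-0.61) but not in deviations (0.12), so that pattern lay between the groups and not between libraries of one group. Epcam deviations had r = 0.66 with Krt18, 0.57 with Krt8 and -0.62 with the summed neural crest mesenchyme list. Between the arches of an embryo, deviations had r = 0.63 for Trp63, 0.54 for Krt5, 0.53 for Krt15, 0.49 for Epcam and 0.42 for Krt14, and 0.03 for Cdh1, over 33 embryos. The Krt8 to Krt18 ratio per kilobase averaged 0.640 ± 0.0919 (SD over 68 libraries) and was highest in PA1 E9.5 replicate 3 labelled Hoxa2-/-, at 0.956. In wildtype at E10.5 it averaged 0.818 in PA1 and 0.832 in PA2, with all 6 libraries between 0.731 and 0.916, against 0.571 to 0.656 in the 6 libraries labelled Hoxa2-/- of that stage, where label and division cannot be told apart.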

How the data were processed

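RNA from hand-dissected pharyngeal arches was sequenced after SMART-seq v4 cDNA amplification and Nextera XT library construction, per the labels' protocols. Since the protocols mention no molecular identifiers, reads may be copies of one molecule. The submitters' processing notes name bcl2fastq 2.18, TopHat2 2.1.1, R 3.3.2 and the build mm10, while the counting program, annotation and strand setting are not given in the sources used here, and reads of overlapping or antisense genes cannot be told apart. The authors deposited 1 table of normalized signal values per gene and library, in the form of CPM. Their totals are not equal between libraries, so a further scaling factor is included, whose method is not given in the sources used here. These deposited values are whole multiples of what 1 read is worth in each library (100% within 0.01 read, largest distance 7.9e-05), so whole read counts were recovered from the deposited values. The plan had assumed plain CPM, and the tests planned for CPM were used. Symbols, coordinates and exon lengths came from GENCODE M21 (21932 identifiers matched).

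Libraries were grouped by title and characteristics. The members, marker lists and tests were chosen with earlier results of these data known, and the mesothelial and trophoblast lists after their values were seen. Genes with at least 1 CPM in at least 3 libraries (18428) entered a limma fit (version 3.58.1, R 4.3.3) of log2(CPM + 1) with 1 mean per group, all 68 libraries, a trended prior and Benjamini-Hochberg adjustment over all genes kept, with a threshold of 0.05. All 10 members passed the filter. Members were named in every comparison. For likeness the 3 genes of highest r were named, and for each list at most 4 genes that passed in the mean arch comparison. Levels relative to Epcam were tested by exact two-sided permutation over libraries. Same-numbered arches come from single embryos per the series text, and their deviations from the group means had a median r of 0.35 (30 of 33 pairs over 0.1) against -0.12 for different numbers, so the embryo was fitted as a block (consensus correlation 0.22) as an alternative. The limma code was tested on simulated data. Alternatives were the filter (none, or 5 CPM), the pseudocount (0.25 or 5), scaling by medians of ratios, only the compared groups, edgeR 4.0.16 quasi-likelihood on the recovered reads, and leaving out libraries. The removal of 2 libraries rich in red cell or mesothelial transcripts, and the comparison with Trp63, were added after seeing the data. Results for some genes are not reported here.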

Additional observations from a re-analysis of the deposited data

Results flagged for a closer look

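Within groups of 4 or more libraries, 6 of 120 combinations of member and group were flagged, as many as the 6 that 1 in 20 gives by chance. The rule took the gap to the nearest library as a share of the group's range in log2(CPM + 1). It did not flag Krt15 at 29.8 CPM in wildtype PA2 E9.0 (group median 2.35 CPM). Nor did it flag Krt8 at 501 CPM in PA1 E9.5 labelled Hoxa2-/- (group median 197 CPM), so values not flagged can also stand far out. Krt5 was high in PA1 E9.0 replicate 3 labelled Hoxa2-/- (0.299 CPM from 3 reads, others 0.126 to 0.153 CPM) and in PA2 E9.5 replicate 5 labelled Hoxa2-/- (0.486 CPM from 7 reads, others 0 to 0.0817 CPM). Fam83f was high in the same PA2 E9.5 library (5.76 CPM, others 4.25 to 4.53 CPM). Krt18 was low in PA1 E9.0 replicate 3 labelled Hoxa2-/- (233 CPM, others 288 to 300.3 CPM) and high in PA1 E10.0 replicate 5 labelled Hoxa2-/- (176 CPM, others 139.7 to 144 CPM). Krt19 was low in wildtype PA2 E10.0 replicate 2 (12.6 CPM, others 27.2 to 34.9 CPM).

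The arch difference of Trp63 changed between E9.0 and E10.5, by 1.33 on the log2 scale in wildtype (limma, adjusted p = 0.0087) and 1.59 in libraries labelled Hoxa2-/- (limma, adjusted p = 0.0014).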

How the results depend on the processing

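Of 79 member results past the threshold, none reversed under the alternatives run. All 79 kept their call with a pseudocount of 0.25, median-of-ratios scaling and the replicate block, 78 with a pseudocount of 5 or no filter, 76 without the yolk sac libraries, 74 with edgeR, 73 without the 2 libraries rich in red cell or mesothelial transcripts and 70 with only the compared groups. The 5 CPM filter drops Krt5, and the other 73 kept theirs. Of 1185 values with 1 library left out, 1135 kept their call and 50 lost it.

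The counts that follow include Krt5. Of 280 counts of members called, 263 stayed within 1.5 times. With only the compared groups, the count became 5 for arches in wildtype at E10.0 and 4 with the label Hoxa2-/- at E10.5, 1 and 2 for labels in PA1 at E9.5 and E10.5, 0 in PA2 at E9.0, and 2 and 0 for the change of the arch difference in wildtype and with the label Hoxa2-/-. The replicate block gave 2 in each of those last comparisons. Without the 2 libraries, labels gave 0 and 2 in PA1 at E9.5 and E10.5 and 0 in PA2 at E9.0. With edgeR they gave 1 and 0 in PA1 at E9.5 and E10.5 and 1 in PA2 at E10.5, and with the 5 CPM filter 0 and 1 in PA1 and PA2 at E10.5. With 1 library left out, arch counts ran from 4 to 5 in wildtype at E9.0, 3 to 5 at E9.5, and with the label Hoxa2-/- 4 to 5, 5 to 6 and 2 to 3 up to E10.0. Label counts ran from 0 to 3 and 0 to 1 in PA1 at E9.5 and E10.5, and 0 to 1 and 1 to 2 in PA2 at E9.0 and E10.5.

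Relative to Epcam, a paired exact sign-flip permutation over embryos (the replicate block) gave Krt14 differences of -3.05, -2.53 and -3.24 in wildtype from E9.0 to E10.0 and -2.85, -3.19 and -3.04 with the label Hoxa2-/-. For Fam83f they were -3.10, -2.32 and -2.34, and -2.92, -2.57 and -2.30. All had an adjusted p of 0.167, since so few pairs cannot reach 0.05, against 0.0127 or 0.0381 in the unpaired exact permutation test, so that no call held.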
